A study of Mus musculus with 6 samples.

Results

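Nucleoside transporter genes were examined in mouse Th17 cells cultured with or without desIgf1, a truncated form of insulin-like growth factor 1. The 5 genes, of 39179 in the files, were Gm14085, Slc28a2, Slc29a1, Slc29a2 and Slc29a3, matched by gene symbol. The set was chosen by the difference in Gm14085 counts between these same desIgf1 and control libraries, together with membership of the carrier families. The values of all 5 genes in that comparison are therefore a description and support no statement of significance. Where a fit over the whole table called a member, the count is given beside the share of all genes called, and nothing is read from it. In the desIgf1 group, 3 libraries came from naive CD4+ T cells that had received 30 ng/mL desIgf1 in Th17 conditions, and in the control group 3 libraries came from Th17 cultures without it. Both groups were C57BL/6 cells carrying the IL17a/hCD2, Ifng/Thy1.1 and Foxp3/GFP reporters. The Th17 culture, shared by both groups, lasted 5 days. It combined IL6 (20 ng/mL) and TgfB (2.5 ng/mL) with antibodies to Ifng and IL4 (10 µg/mL each), soluble antibody to CD3 (5 µg/mL) and irradiated feeder splenocytes lacking CD4+ cells. The RNA came from sorted cells positive for the IL17a reporter and negative for the other reporters. The treatment text names desIgf1 for every library, and the groups follow the sample titles.

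Nucleosides do not cross membranes freely and are carried by 2 unrelated families. The SLC28 or concentrative family moves them into the cell together with sodium ions, and its member Slc28a2 (CNT2) prefers purine nucleosides and uridine. The SLC29 or equilibrative family lets them move down their gradient in either direction. Slc29a1 (ENT1) and Slc29a2 (ENT2) act mainly at the cell surface, and Slc29a3 (ENT3) acts in lysosomes and other inner membranes. In lymphocytes these carriers feed the salvage of nucleosides into nucleotides and set how much adenosine stays outside the cell. Gm14085 is a tandem copy of Slc28a2, listed by RefSeq as Slc28a2b, and the files used here assign it no transport activity of its own.

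Gm14085 (ENSMUSG00000079071) lies on chromosome 2 from 122484941 to 122528040 in GRCm38, on the + strand, and Slc28a2 (ENSMUSG00000027219) lies before it on the same strand from 122426477 to 122461137. In GENCODE M21 the transcripts Gm14085-201 and Slc28a2-201 have 18 exons each, of which 16 are equal in length and 3 are identical in sequence. The identity of the exon pairs ran from 81.4% in the fifth to 100%. Their coding sequences are both 1983 bases long and differ at 103 of 1982 aligned bases, an identity of 94.8%. The translated proteins, both of 660 residues, differ at 56 residues, an identity of 91.5%. By the same measure Slc29a1 and Slc29a2 share 50.2% of aligned residues, Slc29a1 and Slc29a3 32.6%, and Slc29a2 and Slc29a3 35.0%.

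The differences between the 2 copies are gathered in short stretches, and a read can be assigned to one copy only where it covers a difference. The first pair of sequences below is the 90-base coding window with the most differences, 25, at coding bases 427 to 516 of both genes, across the junction of exons 5 and 6. Capitals mark the bases that differ between the copies. The last line is the longest run that is the same in both, 192 bases at coding bases 157 to 348, and a read wholly inside it matches both copies. All are 5′ to 3′ from GENCODE M21 transcripts.
Gm14085: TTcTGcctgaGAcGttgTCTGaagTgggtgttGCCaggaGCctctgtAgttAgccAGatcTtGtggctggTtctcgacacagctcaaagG
Slc28a2: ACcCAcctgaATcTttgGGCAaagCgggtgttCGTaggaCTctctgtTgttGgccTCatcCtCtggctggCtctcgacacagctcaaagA
Both copies: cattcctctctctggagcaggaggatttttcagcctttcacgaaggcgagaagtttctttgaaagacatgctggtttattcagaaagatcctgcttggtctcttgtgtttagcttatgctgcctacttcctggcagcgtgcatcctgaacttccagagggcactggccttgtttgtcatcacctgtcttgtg

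**Figure D1:**
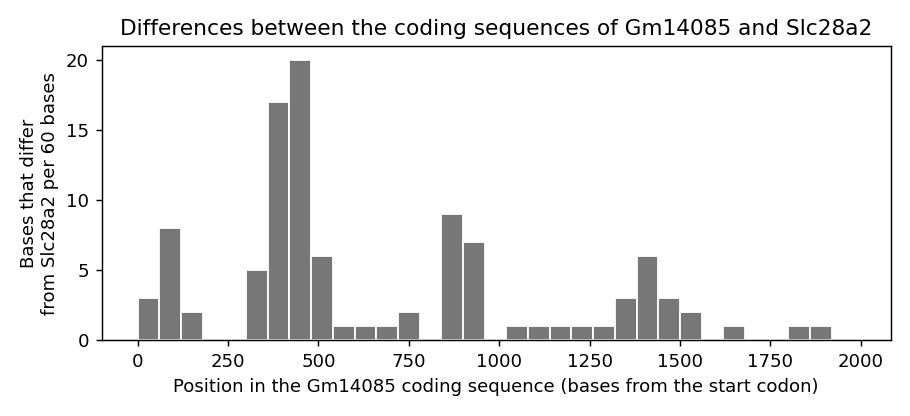
Number of bases that differ from Slc28a2 in each 60-base window of the Gm14085 coding sequence (x axis, bases from the start codon; a base opposite a gap counts as a difference). The windows from 361 to 420 and from 421 to 480 hold 17 and 20 differences, the most of any window.

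Reads aligned to several sites are listed apart from the gene counts in the files, so reads within shared stretches are missing from both copies. In Gm14085-201, 78.5% of 100-base windows, 71.0% of 75-base windows and 59.4% of 50-base windows occurred in no transcript of another gene. In Slc28a2-201 these shares were 79.1%, 71.9% and 60.6%, and every shared window was shared with the other copy alone. The shares of the 2 copies were within 2 percentage points of each other at each length. The read length is not given in the sources used here, and windows were compared with transcripts and not with the genome. Slc29a2 had 100% of windows to itself at all 3 lengths, and Slc29a3 99.6% at 75 bases. Slc29a1 had 93.7% at 75 bases, the rest lying in the antisense gene Gm17080, which held 8, 10 and 6 counts in desIgf1 libraries 1 to 3 and 14, 2 and 18 in control libraries 1 to 3.

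Gene counts summed to 40081675 to 47929948 in desIgf1 libraries and 34567899 to 45874707 in control libraries. Both libraries numbered 3 stood apart from the other 4 on the first principal component (43.5% of the variance), and values without them are given below. Both libraries numbered 1 held Xist and few Y-linked counts, and the others held the reverse. T cell markers were present throughout, with Cd4 between 1657 and 1950 CPM with desIgf1 and between 1671 and 1905 CPM in control, and Cd8a was at most 0.103 CPM. Over all genes, edgeR's quasi-likelihood test called 0 of 13846 genes at an adjusted p of 0.05, with 1130 at an unadjusted p under 0.05. With the replicate number as a block it called 44 (0.318%), 0.181% higher and 0.137% lower with desIgf1. DESeq2 called 202 (1.46%), 0.802% higher and 0.657% lower, and limma voom called 0. Without a filter on low counts edgeR called 16 of 22504 genes (0.0711%). Fewer cells with a transcript and less of it per cell cannot be told apart in these bulk samples.

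Gm14085 was the member with the largest difference between the groups. It had 206, 126 and 265 counts in desIgf1 libraries 1 to 3, against 1554, 781 and 1675 counts in control libraries 1 to 3. Normalised, these were 5.16, 2.99 and 5.48 CPM with desIgf1 and 34.1, 18.3 and 48.0 CPM in control. All 3 desIgf1 libraries were below all 3 control libraries. The means were 4.54 ± 1.35 CPM with desIgf1 and 33.5 ± 14.8 CPM in control (SD, n = 3 each). The fitted log2 fold change was -2.88 ± 0.39 (SE), a level 7.35-fold lower with desIgf1. A fitted log2 fold change below -1 was found for this 1 member, and for 1.66% of all tested genes.

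The difference in Gm14085 was present in each of the 3 replicate numbers. Between same-numbered libraries the log2 difference was -2.71, -2.60 and -3.12 for numbers 1, 2 and 3. With the replicate number as a block the log2 fold change was -2.83 ± 0.16, and without both libraries numbered 3 it was -2.67 ± 0.17. Leaving out single libraries gave -3.17 to -2.53. The blocked fit and DESeq2 each called 1 of the 5 members, Gm14085, against 0.318% and 1.46% of all tested genes, and edgeR without the block called 0.

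**Figure D2:**
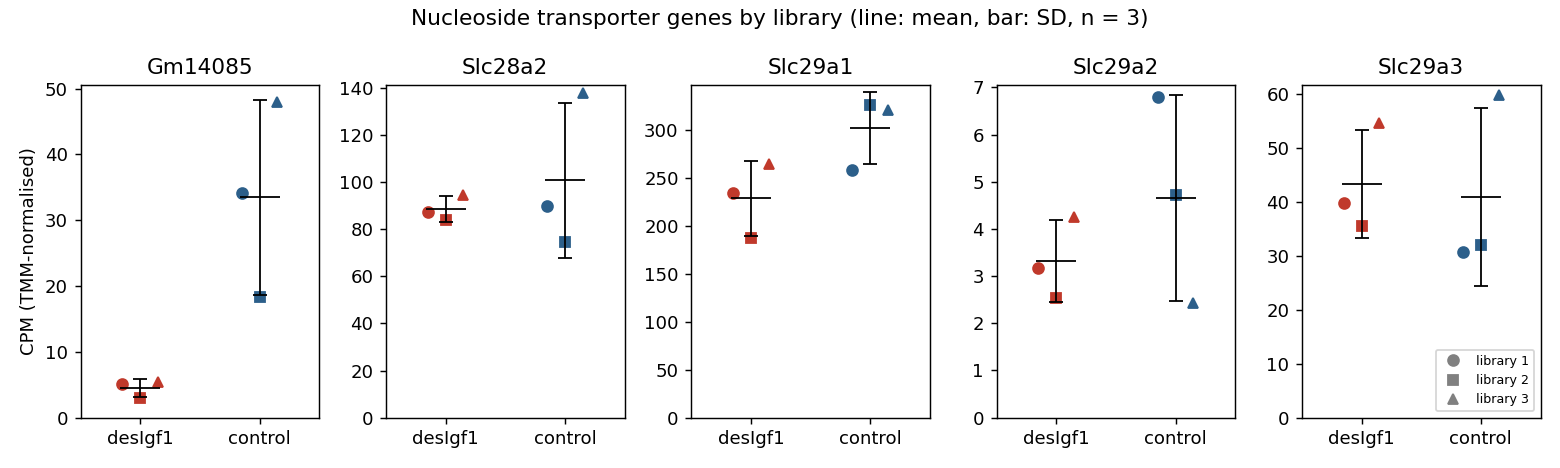
TMM-normalised CPM (y axes, each from 0) of the 5 genes in desIgf1 and control libraries. Symbols show library numbers, the line the mean and the bar the SD (n = 3). Gm14085 separates the groups, at 2.99 to 5.48 CPM with desIgf1 and 18.3 to 48.0 CPM in control, while the other 4 genes overlap.

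Slc28a2, the sodium-coupled carrier CNT2, overlapped between the groups. It had 3485, 3534 and 4570 counts with desIgf1, against 4097, 3184 and 4810 counts in control, or 87.2, 83.9 and 94.5 CPM against 89.8, 74.7 and 138 CPM. Control library 3 alone was above the rest. The log2 fold change was -0.19 ± 0.21. Without control library 3 it was 0.11 ± 0.12, and in the blocked fit without both libraries numbered 3 it was 0.06 ± 0.12. Its direction therefore rested on control library 3.

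The ratio of the 2 copies within a library does not depend on how libraries are scaled. Gm14085 made up 5.58% (95% exact binomial interval 4.86 to 6.37), 3.44% (2.88 to 4.09) and 5.48% (4.86 to 6.16) of the counts of the pair in desIgf1 libraries 1 to 3. It made up 27.5% (26.3 to 28.7), 19.7% (18.5 to 21.0) and 25.8% (24.8 to 26.9) in control libraries 1 to 3. The means were 4.84 ± 1.21% with desIgf1 and 24.3 ± 4.11% in control (SD, n = 3 each), and the ranges did not overlap. The share is built on Gm14085, whose difference chose the set, so this separation is not independent of that choice and supports nothing. The binomial intervals cover counting error only. How many Gm14085 counts came from misplaced Slc28a2 reads was not tested.

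**Figure D3:**
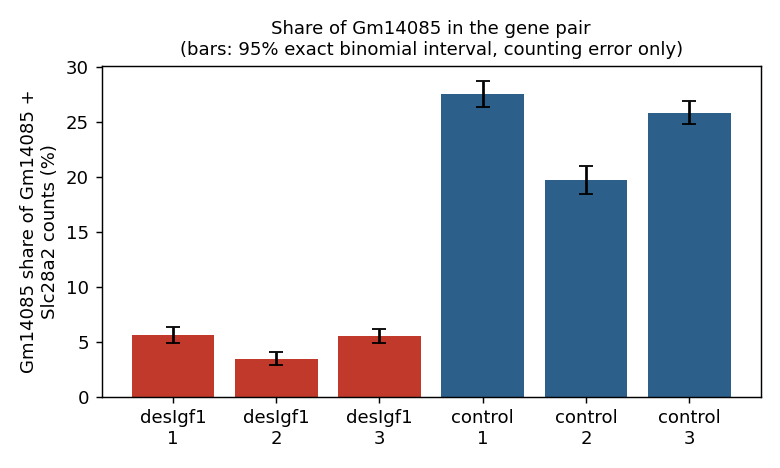
Share of Gm14085 in the summed counts of Gm14085 and Slc28a2 (y axis, percent) by library, with 95% exact binomial intervals for counting error. The desIgf1 bars reach 3.44 to 5.58% and the control bars 19.7 to 27.5%.

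Summed over both copies, the pair reached 92.4, 86.9 and 99.95 CPM with desIgf1, against 123.9, 93.0 and 185.7 CPM in control. These ranges overlap. A fit with the 2 genes added into 1 row gave a log2 fold change of -0.53 ± 0.23, and -0.47 ± 0.16 with the replicate block, an alternative chosen after seeing the data. Most counts of the pair were Slc28a2 in every library, so the sum moved far less than Gm14085 alone.

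Slc29a1, the surface carrier ENT1, was the most abundant member (ENSMUSG00000023942, chromosome 17, 45585200 to 45599606). It was at 234, 188 and 264 CPM with desIgf1, against 259, 326 and 321 CPM in control, with means of 229 ± 38.7 CPM and 302 ± 37.6 CPM (SD, n = 3 each). The highest desIgf1 library lay just above the lowest control library, so the groups overlapped. The log2 fold change was -0.40 ± 0.15, and its size ran from -0.54 to -0.21 over 14 alternatives. The log2 difference was -0.14, -0.80 and -0.28 in numbers 1, 2 and 3.

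Slc29a2, the carrier ENT2 that also takes nucleobases, was low (ENSMUSG00000024891, chromosome 19, 5023860 to 5031972). It had 127, 107 and 206 counts with desIgf1, against 310, 201 and 85 counts in control, or 3.18, 2.54 and 4.26 CPM against 6.80, 4.72 and 2.43 CPM. The numbers disagreed, with log2 differences of -1.09 and -0.88 in numbers 1 and 2 and 0.80 in number 3. The log2 fold change was -0.48 ± 0.40 over all libraries and -0.99 ± 0.24 in the blocked fit without both libraries numbered 3. That last fit, which has fewer residual degrees of freedom, called 2 of the 5 members, Gm14085 and Slc29a2, against 7.64% of all its tested genes.

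Slc29a3, the lysosomal carrier ENT3, differed least between the group means (ENSMUSG00000020100, chromosome 10, 60712072 to 60752794). Its libraries gave 39.8, 35.6 and 54.5 CPM with desIgf1, against 30.7, 32.0 and 59.9 CPM in control. Number 3 was highest in both groups. The log2 fold change was 0.09 ± 0.29, and 0.13 ± 0.13 with the block. It was 0.47 ± 0.19 without control library 3 and -0.14 ± 0.31 without desIgf1 library 3, so its direction depended on the libraries used.

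**Figure D4:**
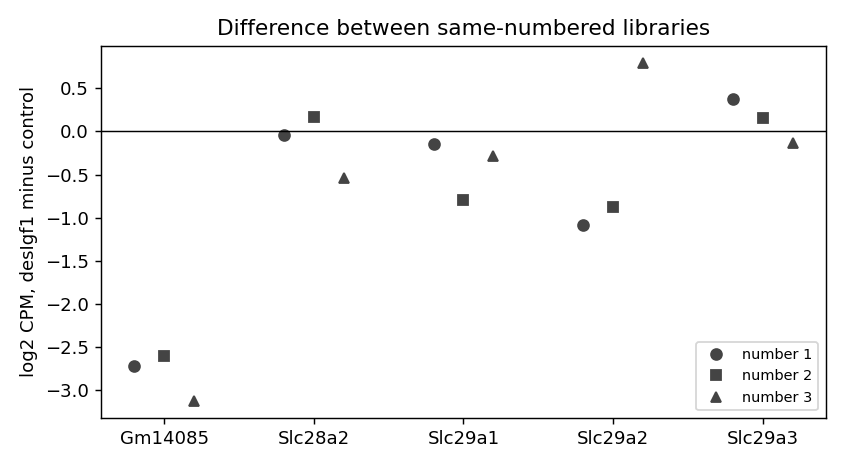
Difference in log2 CPM (y axis, desIgf1 minus control) between libraries of the same number for each of the 5 genes. Gm14085 lies between -3.12 and -2.60 in all 3 numbers, Slc29a1 is negative in all 3 and nearer 0, and Slc28a2, Slc29a2 and Slc29a3 have both signs.

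Levels between genes were compared as TPM over annotated exon length. These TPM make no allowance for reads lost from the stretches the 2 copies share. Gm14085 and Slc28a2 may therefore stand too low beside the SLC29 genes, and the place of Gm14085 in the order may depend on this. With desIgf1 the order was Slc29a1 (221 ± 36.8 TPM), Slc28a2 (81.5 ± 4.65), Slc29a3 (28.7 ± 6.45), Slc29a2 (4.27 ± 1.10) and Gm14085 (3.52 ± 1.05). In control it was Slc29a1 (294 ± 35.9 TPM), Slc28a2 (93.6 ± 30.9), Slc29a3 (27.4 ± 11.1), Gm14085 (26.2 ± 11.7) and Slc29a2 (6.02 ± 2.84; SD, n = 3 in each group). Gm14085 thus stood beside Slc29a2 with desIgf1, where it ranged from 2.32 to 4.22 TPM and Slc29a2 from 3.26 to 5.43 TPM. It stood beside Slc29a3 in control, where it ranged from 14.3 to 37.6 TPM and Slc29a3 from 20.7 to 40.2 TPM. In both cases the 2 neighbours in the order overlapped, and Slc29a1 and Slc28a2 were apart from each other and from the rest. Per kilobase of 75-base windows found in no other gene, Gm14085 was at 1.75 ± 0.52 CPM with desIgf1 and 12.9 ± 5.70 CPM in control, and Slc28a2 at 32.6 ± 1.99 CPM and 37.1 ± 12.1 CPM (SD, n = 3 each). The SLC29 genes were not scaled in this way.

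Of the summed TPM of the 5 genes, Slc29a1 took most, 65.0 ± 1.78% with desIgf1 and 66.2 ± 7.20% in control. Gm14085 took 1.02 ± 0.19% with desIgf1 and 5.78 ± 2.12% in control (SD, n = 3 each). The sum was 344, 287 and 386 TPM in desIgf1 libraries 1 to 3 and 393, 427 and 523 TPM in control libraries 1 to 3. All 3 desIgf1 sums were below all 3 control sums. These sums include Gm14085, whose difference chose the set, so their separation is not independent of that choice and supports nothing. Of single genes tested, 13.5% had groups that did not overlap, 6.18% with all desIgf1 libraries lower and 7.31% with all higher.

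The other carriers of the 2 families were near or below detection. Slc28a1 (CNT1) had 0 counts in the 3 desIgf1 libraries and 3, 0 and 9 in control libraries 1 to 3. Slc28a3 (CNT3) had 0, 2 and 0 counts with desIgf1 and 0, 1 and 0 counts in control. Slc29a4, a monoamine and adenosine carrier, was at 0.594 to 1.01 CPM with desIgf1 and 0.610 to 0.987 CPM in control. Slc28a2 and its copy were therefore the concentrative carriers measured at more than a few counts.

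The windows around the annotated starts of the 2 copies did not resemble each other. The RefSeq windows of GRCm38.p6 from 250 bases before to 50 bases after the start held no common stretch longer than 8 bases in a local alignment. The Gm14085 window was instead similar to the transcript Slc28a2-201, with 145 of 156 aligned bases the same (92.9%). The 2 windows thus lie at unlike places in the copies, and matching upstream regions were not compared. The table gave windows for all 5 members, and the 2 copies are shown because one differed between the groups and the other did not. They are chr2:122484691-122484990 and chr2:122426185-122426484, + strand, with motif matches in capitals.
Gm14085: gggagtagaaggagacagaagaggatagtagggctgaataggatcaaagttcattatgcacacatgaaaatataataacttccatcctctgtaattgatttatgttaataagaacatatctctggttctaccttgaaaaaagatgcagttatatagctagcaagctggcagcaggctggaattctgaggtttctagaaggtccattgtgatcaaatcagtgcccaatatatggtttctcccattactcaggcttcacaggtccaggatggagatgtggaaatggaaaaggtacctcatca
Slc28a2: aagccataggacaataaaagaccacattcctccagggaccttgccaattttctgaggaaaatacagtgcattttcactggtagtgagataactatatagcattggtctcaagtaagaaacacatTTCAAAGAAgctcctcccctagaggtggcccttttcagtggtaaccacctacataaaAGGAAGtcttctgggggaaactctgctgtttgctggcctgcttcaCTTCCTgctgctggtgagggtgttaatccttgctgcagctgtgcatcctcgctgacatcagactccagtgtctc

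The 6 motifs searched on both strands were TTCNNNGAA (STAT), AGGTCA (ROR), GTAAACA (FOXO), CACGTG (E-box), TATAAA (TBP) and AGGAAG (ETS core). The Slc28a2 window held TTCNNNGAA at 1 place and AGGAAG at 2 places, with no overlap between them, and the Gm14085 window held none of the 6. Of 32817 promoter windows of that length, 8.3% held TTCNNNGAA, 16.3% AGGTCA, 3.6% GTAAACA, 7.1% CACGTG, 13.6% TATAAA and 35.4% AGGAAG. These matches describe the letters of the windows and say nothing of factor binding.

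Among the genes around the pair, the 5 protein-coding genes on each side included 7 that could be tested. With edgeR 0 of the 7 passed, with or without the block, against 0.318% of all genes with the block and 0 without it. On the left, Shf (an adaptor protein gene) was at 8.66, 10.2 and 7.96 CPM with desIgf1 and 11.5, 9.45 and 15.2 CPM in control (log2 -0.43 ± 0.22, adjusted p = 0.630). On the right, Gatm, an enzyme of creatine synthesis, was at 14.8, 15.8 and 17.2 CPM with desIgf1 and 18.9, 21.1 and 14.6 CPM in control (log2 -0.19 ± 0.17, adjusted p = 0.754). Both overlapped between the groups. Of the neighbours farther out, AA467197, on the right and chosen after its values were seen, was at 11.2, 9.05 and 8.27 CPM with desIgf1 and 8.02, 3.12 and 5.41 CPM in control, with no overlap (log2 0.78 ± 0.34, adjusted p = 0.608, and 0.223 with the block). Duoxa2, on the left, was too low to test, with 6, 4 and 6 counts with desIgf1 and 9, 8 and 7 counts in control.

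Between Slc28a2 and Gm14085, on the other strand, lies the processed pseudogene Bambi-ps1 (122466935 to 122467526). It was looked at after its values were seen. It was at 4.36, 4.70 and 6.68 CPM with desIgf1, against 11.4, 11.4 and 19.6 CPM in control, with no overlap. Its log2 fold change was -1.43 ± 0.29 without the block (edgeR adjusted p = 0.302), and it was called with the block (adjusted p = 0.0440). Its log2 differences were -1.38, -1.27 and -1.55 in numbers 1, 2 and 3. Windows shared with other genes were counted for the members only, and whether Bambi-ps1 counts include misplaced reads of another gene was not tested. The pseudogene Gm14086, inside Slc28a2, was at 1.001 to 1.54 CPM with desIgf1 and 1.10 to 2.43 CPM in control.

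**Figure D5:**
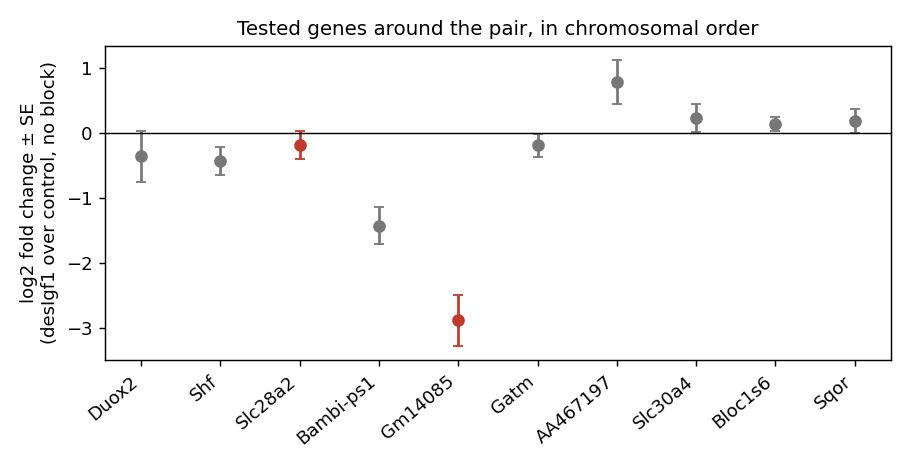
Fitted log2 fold change (y axis, desIgf1 over control, fit without the block, bars SE) of the tested genes around Slc28a2 and Gm14085, in chromosomal order. Gm14085 (-2.88) and Bambi-ps1 (-1.43) are the lowest, and Slc28a2 (-0.19) on their left and Gatm (-0.19) on their right lie near 0.

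The enzymes that handle nucleosides after uptake showed no called change with all 6 libraries, where few genes of any kind were called. Of 31 listed genes of nucleoside transport and salvage other than the 5 members, 26 were tested, and edgeR called 0 in either direction with or without the block. Over all 13846 genes it called 0 without the block and 0.318% with it, so 0 of 26 is no result about the list. DESeq2 and limma voom also called 0, against 1.46% and 0 of all genes. An unadjusted edgeR p under 0.05 was found for 3 of the 26, and for 1130 of all 13846. The median log2 fold change of the list was -0.06, against -0.01 over all 13846 genes tested, and 4 of the 26 did not overlap between the groups, against 13.5% of all tested genes. By role, 0 of 8 nucleoside kinases, 0 of 5 phosphorylases and phosphoribosyltransferases, 0 of 4 deaminase and oxidase genes, 0 of 7 nucleotidase and dNTP hydrolase genes and 0 of 2 other carriers passed.

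In the fit without the block, the salvage genes with the smallest p in each direction were Upp1, Nt5c3, Dctd and Slc43a3. With the block the smallest p of the list was that of Nt5e, the surface enzyme CD73 that releases adenosine from AMP (log2 -0.84 ± 0.12, adjusted p = 0.0633). Upp1, uridine phosphorylase, was at 29.1, 49.4 and 31.3 CPM with desIgf1 and 19.9, 25.6 and 11.8 CPM in control (log2 0.94 ± 0.31, adjusted p = 0.526, and 0.116 with the block). Nt5c3, a pyrimidine nucleotidase, was at 35.8, 37.5 and 34.3 CPM with desIgf1 and 29.0, 30.3 and 23.2 CPM in control (log2 0.38 ± 0.13, adjusted p = 0.528). Neither gene overlapped between the groups.

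Dctd, dCMP deaminase, was at 6.06, 4.75 and 9.18 CPM with desIgf1 and 9.82, 9.81 and 10.7 CPM in control (log2 -0.60 ± 0.26, adjusted p = 0.608). Slc43a3, a purine nucleobase carrier, was at 84.2, 59.5 and 91.2 CPM with desIgf1 and 110.0, 128 and 83.0 CPM in control (log2 -0.45 ± 0.21, adjusted p = 0.620). Slc43a3 overlapped and Dctd did not. Blocked fits without both libraries of 1 number, which have fewer residual degrees of freedom, called 1, 4 and 5 salvage genes without numbers 1, 2 and 3, among 0.513%, 4.42% and 7.64% of all genes. Upp1 was the salvage gene called in all 3 of these fits, and Dctd and Slc43a3 were called without number 3.

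By likeness of log2 CPM over the 6 libraries, the 5 genes closest to Gm14085 among 11639 were Brpf3, Ccs, Snapc4, Fryl and Casz1, with Pearson r of 0.98 to 0.99. They share the libraries and the split between groups. Ccs, the copper chaperone of superoxide dismutase, was at 46.5, 44.2 and 46.3 CPM with desIgf1 and 81.6, 65.5 and 81.6 CPM in control. Brpf3, a subunit of histone acetyltransferase complexes, was at 75.4, 66.9 and 75.4 CPM with desIgf1 and 95.3, 84.3 and 101 CPM in control. Both were lower in all 3 desIgf1 libraries, by less than Gm14085. They were picked for their likeness to Gm14085, so this direction follows from the choice and supports nothing. The blocked fit called none of the 5 genes. Closest to Slc29a1 were Tjap1, Zdhhc5, Zfp518b, Slc25a13 and Lin9, with r of 0.98 to 0.99. Among the members themselves Slc28a2 and Slc29a3 had the highest r, 0.80, and Gm14085 and Slc28a2 had 0.51, both over the 6 libraries and given as descriptions.

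The ranges of summed markers of the feeder splenocytes and of other cell types overlapped between the groups, while 2 of these lists were higher with desIgf1 in all 3 replicate numbers. The dendritic cell markers summed to 7.86, 6.65 and 38.6 CPM in desIgf1 libraries 1 to 3, against 2.19, 3.19 and 15.8 CPM in control libraries 1 to 3, most of it Ccl22, and Xcr1, Siglech and Cd209a were at 0 in every library. The CD8 and cytotoxic T cell markers summed to 6.41, 11.4 and 16.2 CPM in desIgf1 libraries 1 to 3, against 4.91, 6.61 and 11.5 CPM in control libraries 1 to 3. Most of that sum was Cd8b1 in every library, and its members did not all move together. Gzma was at 0.225, 0.095 and 1.82 CPM in desIgf1 libraries 1 to 3, against 1.10, 0.493 and 0.229 CPM in control libraries 1 to 3. The 6 matched B cell markers summed to 56.6 to 97.5 CPM with desIgf1 and 68.7 to 174 CPM in control. The 8 macrophage and monocyte markers summed to 149 to 176 CPM with desIgf1 and 90.8 to 180 CPM in control, with Fcgr1 at 0 in every library. Sums for NK cells (6.84 to 10.1 with desIgf1, 7.15 to 10.3 CPM in control) and platelets (2.25 to 2.75 CPM with desIgf1, 2.35 to 2.78 CPM in control) also overlapped. Neutrophil and erythroid markers summed to at most 0.716 CPM in every library. The part of these cells in the values above was not tested. The 7 Th17 markers, which include the sort gene Il17a, summed to 1980 to 2345 CPM with desIgf1 and 1461 to 1642 CPM in control and did not overlap, and their part in the Gm14085 difference was not tested.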

How the data were processed

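The authors deposited whole-number counts per Ensembl gene for 6 libraries, made with a stranded mRNA kit per the labels' protocols. Per the submitters' processing notes the build was GRCm38 (mm10) and the tools were HTSeq 0.7.2, STAR 2.5.3, DESeq2 1.18.1 under R 3.4.3, Trim Galore 0.4.5 and SAMtools 0.1.18, listed without settings. The annotation release is not given in the sources used here. The names of the deposited tables carry the word reverse, which may be the strand setting of the counting. Summary lines naming no gene stayed out of all tests. Non-unique alignments, which are not in the gene counts, made up 46.4 to 48.7% of all entries, those without a gene 13.5 to 15.7% and ambiguous ones 0.712 to 0.761% of uniquely placed reads. Symbols came from GENCODE M21, which matched 37693 of 39179 identifiers. Of the salvage list, Pnp was not matched.

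The test was that of edgeR 4.0.16, run on the counts under R 4.3.3 (TMM scaling, genes kept by filterByExpr at min.count 10, quasi-likelihood fit with robust = TRUE, group as the only term), with Benjamini-Hochberg adjustment over all tested genes and a threshold of 0.05. Alternatives used DESeq2 1.42.0 and limma 3.58.1. A standard error is the log2 fold change divided by the square root of F. CPM use TMM factors, and log2 CPM a prior count of 2. TPM use the union of annotated exons. Alignments used Biopython 1.88. After subtracting group means, libraries with the same title number correlated across genes at 0.593, 0.318 and 0.555. On that ground the numbers were treated as pairs in the blocked fits, while the main fit ignored them. Xist and Y-linked counts also matched between same-numbered libraries. No label tells whether each library is its own culture or mouse. By Xist and Y-linked counts the libraries numbered 1 came from mice of the other sex than the rest, so the spread between libraries is not technical alone. The p-values reflect only how these libraries vary, and part of that may be technical. The libraries of 1 group were not copies (chi-square per degree of freedom 40.5 to 130). The members, gene lists and tests were chosen with earlier results of these data known. Named genes were the members, salvage genes past the threshold or else the 2 per direction with the smallest p, the adjoining genes and any neighbour that passed, the 5 genes most like Gm14085 and Slc29a1 with a mean of at least 1 CPM, and Il17a.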

Additional observations from a re-analysis of the deposited data

How the results depend on the processing

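The number of genes called over the whole table depended on the fit. It was 0 as reported, 16 without a filter on low counts, 202 with DESeq2 and 44 with the replicate number as a block, and the fits without 1 library or without both libraries of 1 number gave 0 to 1069, with 72, 620 and 1069 in the blocked fits without numbers 1, 2 and 3. For salvage genes those fits gave 0 to 5 calls (1, 4 and 5 in the blocked ones), and the replicate block changed no call of theirs with all 6 libraries. The log2 fold change of Gm14085, the value that chose the set, stayed between -3.17 and -2.53 over the 14 alternatives that keep the 2 copies apart, while with Gm14085 and Slc28a2 counts summed it was -0.53, and -0.47 with the block. The difference in the Gm14085 share (-19.5 percentage points, desIgf1 minus control) moved by less than the spread between libraries when 1 library was left out. With the longest transcript as length, Slc28a2 with desIgf1 was at 66.0 TPM, and Slc29a1 was at 301 TPM with desIgf1 and 400.0 TPM in control. These TPM moved because the lengths used for all genes changed, with the counts the same. The cause of the changes in the number of calls was not tested. Slc29a2 and the desIgf1 level of Gm14085 rest on 85 to 310 and 126 to 265 counts, which limits their precision.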

Other observations

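Nt5e, the surface enzyme CD73 that releases adenosine from AMP, was chosen after its values were seen. Its level was 211, 192 and 378 CPM with desIgf1, against 384, 288 and 796 CPM in control, in the order of the library numbers. Each desIgf1 library was below the control library of its number, while the groups overlapped. The log2 fold change was -0.91 ± 0.42 (edgeR adjusted p = 0.625), and -0.84 ± 0.12 with the block (adjusted p = 0.0633). It was called in the blocked fits without both libraries numbered 2 or 3. Those fits have fewer residual degrees of freedom and called 4.42% and 7.64% of all genes. Xdh, xanthine dehydrogenase, showed 22.1, 19.3 and 27.6 CPM with desIgf1, against 11.7, 8.42 and 29.3 CPM in control (log2 0.49 ± 0.43, adjusted p = 0.754, and 0.67 ± 0.26, adjusted p = 0.331, with the block). Xdh was also chosen after its values were seen. It was higher with desIgf1 in numbers 1 and 2 and not in number 3. The blocked edgeR fit without both libraries numbered 3 called it (log2 1.06 ± 0.17, adjusted p = 0.00525), among 7.64% of all genes. Hprt and Samhd1 were called in the blocked fit without both libraries numbered 2.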
